A study of Mus musculus with 81 samples.

Results

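The chemokine ligands and chemokine receptors of mouse liver were taken as the 52 genes whose symbol is Ccl, Cxcl, Cx3cl, Ccr, Cxcr or Xcr followed directly by a digit. They are 35 ligands and 17 receptors among 21765 genes, read by 63 probe sets. Where a member had more than 1 probe set (5 members), only that of highest mean was used. Relatives with other names, such as the ligand Xcl1 and the receptor Cx3cr1, fall outside this name rule, as does Cxcr2, which the annotation lists as Il8rb. Cxcr7 is an old symbol of the decoy receptor now called Ackr3. Livers came from male mice of the BXD family, which descends from matings between C57BL/6J and DBA/2J mice, and of both parental strains. The high fat group ate the Harlan 06414 diet from 8 weeks of age and the chow group ate Harlan 2018. All mice were fasted overnight, perfused and killed at 29 weeks of age. Each array was hybridised with an even mix of RNA from about 5 animals that shared a strain and a diet, so p-values measure the spread between pools of different strains and not between animals. There were 40 high fat arrays and 41 chow arrays of 42 strains, and 39 strains (37 BXD strains and both parents) had 1 array on each diet. No transgene or engineered allele is named for any group, and the labels name no batch.

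Chemokines are small secreted proteins that guide white blood cells along concentration gradients. They act through receptors of the G protein-coupled family, and most ligands share receptors with others of their family. In liver, Kupffer cells, sinusoidal endothelial cells, stellate cells and hepatocytes make chemokines after infection, injury or lipid loading. The receptors lie mainly on monocytes, macrophages, lymphocytes and granulocytes that enter the organ. In whole tissue, fewer cells of a type and less RNA per cell cannot be told apart.

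The deposited values are scores, scaled on every array to mean 8 and standard deviation 2 over its probe sets. Differences are in score units, 1 unit being 1/2 of that standard deviation, and no fold changes are given because the log base is not stated. Levels of 5222 negative-control probe sets centred on a median of 6.69, so a level near or below it is not distinct from control probes. The hepatocyte markers together had a median level of 14.3 on high fat and 14.4 on chow, far above the controls. Of the members, 13 had means below 6.69 on both diets: the ligands Ccl8, Ccl12, Cxcl2, Cxcl3, Cxcl5 and Cxcl15 and the receptors Ccr1, Ccr2, Ccr4, Ccr8, Ccr9, Cxcr5 and Xcr1. Ccl28, Ccr1l1 and Cxcr6 lay below it on high fat but not on chow, and the other 36 members were at or above it on both diets. The control probe sets spread widely, with a 90th percentile of 8.75, and only Ccl5, Ccl9, Ccl27a, Cxcl1, Cxcl9, Cxcl12 and Cxcl13 had means above that on both diets. The other 45 members, Ccl2, Ccl3, Cxcl10 and Cxcl16 among them, lay within the levels that control probe sets also reach. Both arrays of strain BXD61, the chow array above all, stood apart from the other strains for many members, so results that rest on it are given with and without it.

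**Figure D1:**
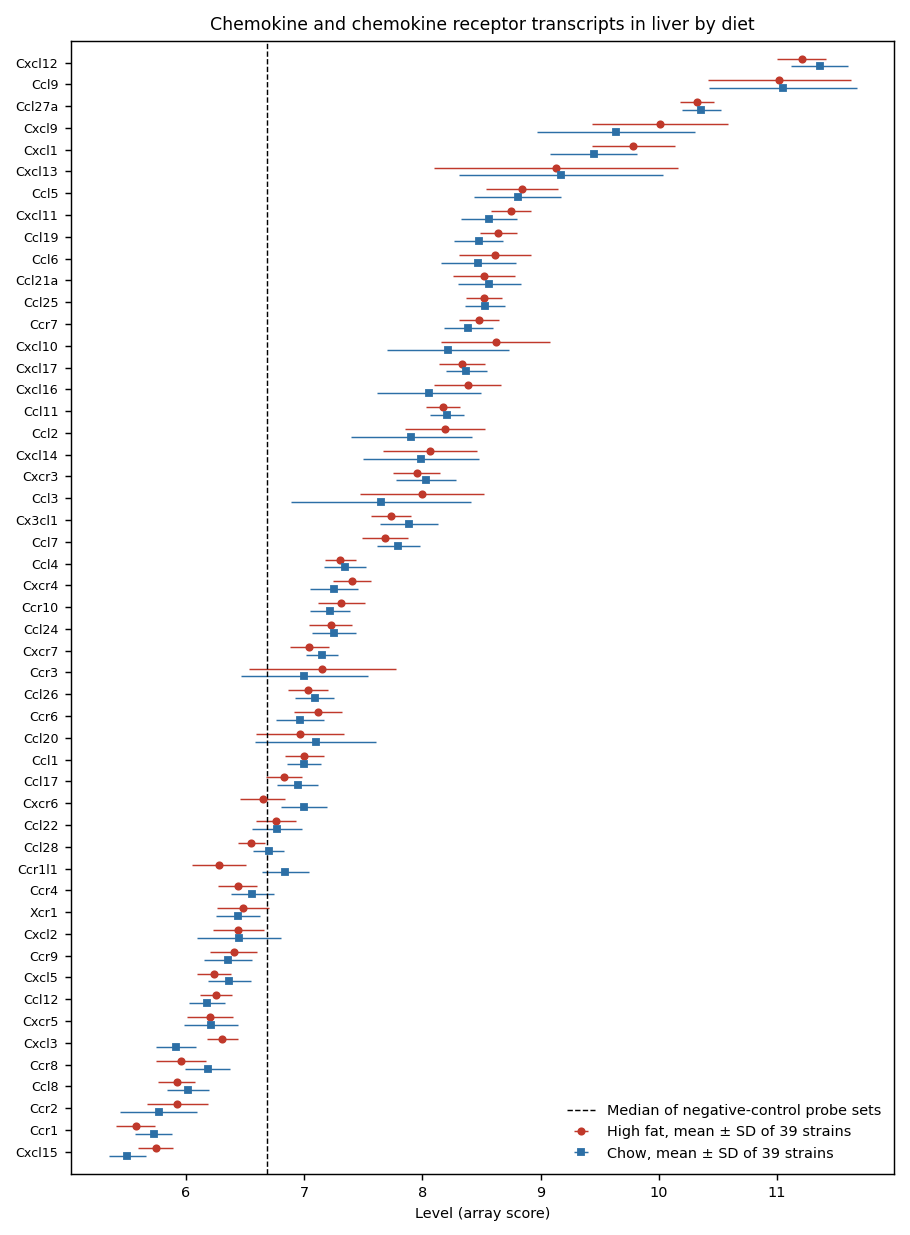
Mean level of the members reported here (array score, horizontal axis) on high fat (red circles) and chow (blue squares), with bars of 1 SD over 39 strains; the dashed line is the negative-control median of 6.69. Rows are sorted only for reading, since levels of different probe sets are not comparable; most lie at or right of the line on both diets, and the SD bars are wide for Cxcl13, Ccl9, Ccr3, Ccl3 and Cxcl9.

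On the high fat diet 31 of the 52 members differed from chow, 17 higher and 14 lower (limma with strain as a block, Benjamini-Hochberg adjusted p below 0.05). The members' share of 59.6% stands beside 53.7% of all genes called by the same test, so the number of calls was near the background. In each direction the shares were 32.7% of members higher, against 27.7% of all genes, and 26.9% lower, against 26.1%. Of the members, 10 also differed by at least 0.25 units, which is 19.2% against 8.65% of all genes. These were 8 higher members, or 15.4% against a background of 4.48%, and 2 lower members, or 3.85% against 4.16%. The median difference was -0.007 units over the members and 0.004 over all genes. The 13 Cxcl ligands had a median difference of 0.184 units with 7 higher and 2 lower, while the 21 Ccl ligands had a median of -0.027 with 4 higher and 5 lower. Among the receptors, 5 of 11 Ccr genes were higher and 4 lower, and 1 of 5 Cxcr genes was higher and 2 lower. Without BXD61, 29 members were called (background 55.2%), 16 higher (background 28.4%) and 13 lower (background 26.8%). Again 10 differed by at least 0.25 units (background 9.15%), 8 higher (background 4.82%) and 2 lower (background 4.34%).

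**Figure D2:**
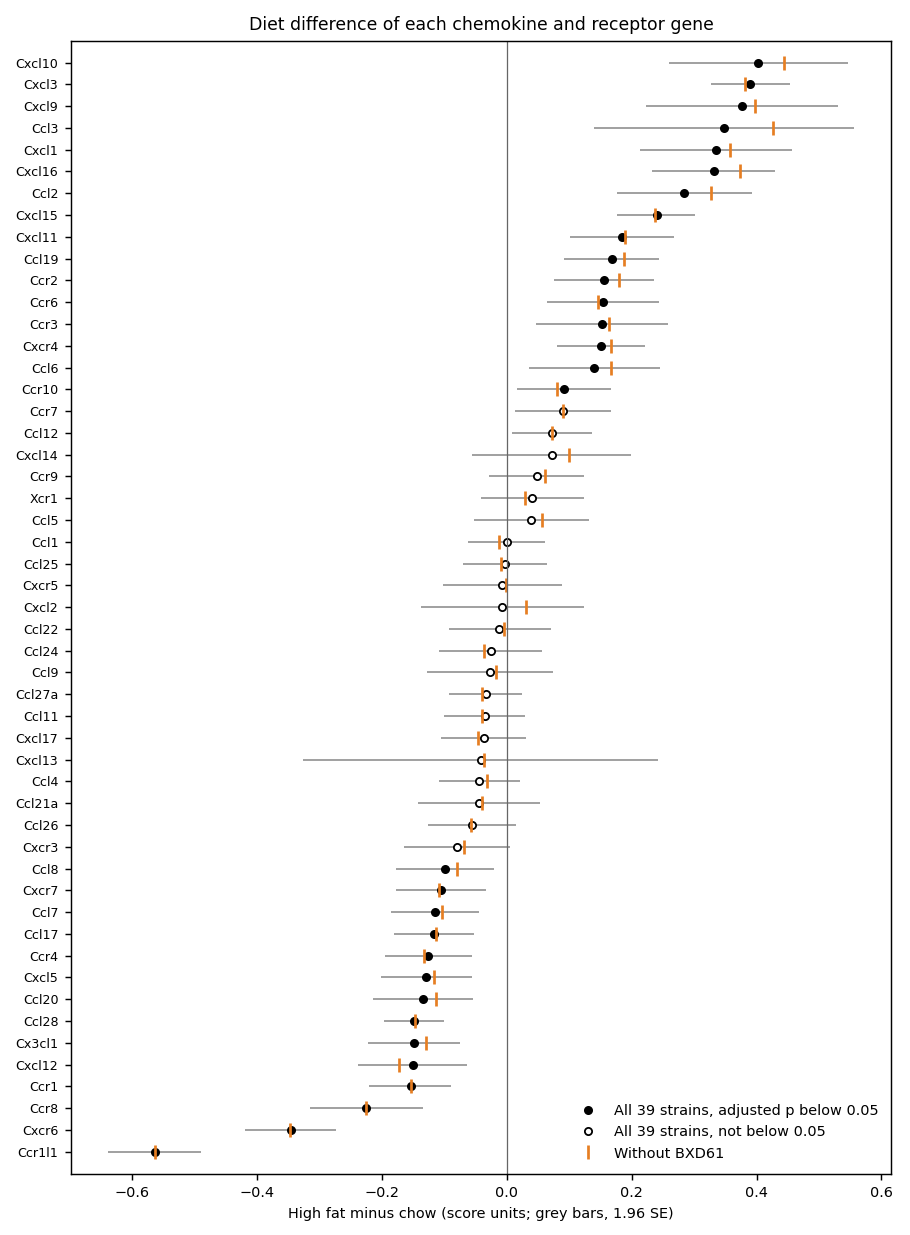
Difference between high fat and chow for the members reported here (score units, horizontal axis), with grey bars for the 95% interval from the limma fit on 39 strains; filled points passed the adjusted p threshold and orange ticks show the difference without BXD61. Cxcl10 and Cxcl3 lie farthest to the right at 0.403 and 0.39 units, and Ccr1l1 lies farthest to the left at -0.564; without BXD61 the ticks of Ccl3 and Ccl2 move further right.

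The ligands Cxcl9, Cxcl10 and Cxcl11 are induced by interferon and draw activated T cells and natural killer cells through their shared receptor Cxcr3. All 3 rose on high fat. Cxcl9 ranged over strains from 8.92 through a median of 9.975 to 11.5 on high fat, and from 8.61 through 9.57 to 11.9 on chow. Cxcl10 ranged from 7.98 through 8.56 to 10.2 on high fat, and from 7.69 through 8.11 to 10.8 on chow. The ranges of the diets overlapped widely for both, and the highest chow array was that of BXD61 for both. Within strains, Cxcl10 was higher on high fat in 35 of 39, by 0.403 ± 0.073 units (SE; limma, adjusted p = 1.05e-05). The 4 strains against this direction were BXD44, BXD61, BXD63 and BXD81. Cxcl9 was higher in 32 of 39, by 0.377 ± 0.078 (adjusted p = 8.21e-05). The largest rises of both were in BXD69, at 2.33 units for Cxcl10 and 1.84 for Cxcl9. Cxcl11 differed by 0.184 ± 0.042 (adjusted p = 0.000304). The difference of their receptor gene Cxcr3, -0.08 units, was not significant (adjusted p = 0.117).

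Interferon response genes moved with these ligands. Of 27 such genes 20 rose (27.7% of all genes did) and 0 fell, with a median difference of 0.255 units. Their mean per array had a median of 9.27 (range over the other strains 8.43 to 10.2) on high fat and 9.00 (8.39 to 9.53) on chow. Examples were the helicase gene Dhx58, at 0.498 ± 0.049 units and higher in 37 of 39 strains, Ifi44 at 0.706 ± 0.077, and the antiviral gene Mx1 at 0.308 ± 0.035. The transcript of interferon gamma itself, Ifng, fell by 0.341 ± 0.033 and was higher on high fat in only 2 of 39 strains. The part of the interferon response genes in the rise of Cxcl9 and Cxcl10 was not tested.

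Cxcl1, Cxcl2, Cxcl3 and Cxcl5 attract neutrophils through Cxcr2. Cxcl1 ranged from 9.06 through 9.81 to 10.5 on high fat, and from 8.81 through 9.395 to 10.4 on chow. The ranges overlapped, and BXD61 again held the highest chow value. Cxcl1 was higher on high fat in 31 of 39 strains, by 0.335 ± 0.062 units (limma, adjusted p = 1.37e-05), and lower in 8, C57BL/6J among them. Cxcl3 was higher in 38 of 39 strains, by 0.39 ± 0.032 (adjusted p = 1.36e-13), the exception being BXD75. Its levels lay between 5.97 and 6.61 on high fat and between 5.535 and 6.21 on chow, all below the negative-control median, so this difference lies in the range of control probes. For Cxcl2 the difference was -0.008 ± 0.067 units (adjusted p = 0.932). Cxcl5 fell by 0.129 ± 0.038 (adjusted p = 0.00367), also at a level below the control median. Of 14 measured markers of monocytes and neutrophils 4 rose, among them Ly6c1 at 0.335 ± 0.063 and Plac8 at 0.283 ± 0.07. That is near the share of all genes that rose, 27.7%. Of the 14 markers 10 were not called and 0 fell. Their mean per array had a median of 7.26 (7.06 to 8.22 in the other strains) on high fat and 7.15 (7.02 to 7.69) on chow, and 5 of the 14 were below the control median on both diets. Their part in the difference of Cxcl1 was not tested.

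The sequences upstream of Cxcl1, Cxcl2, Cxcl3 and Cxcl10 are shown because these ligands lie on the same stretch of chromosome 5 and are known, as background, to be induced by inflammatory signals. Of the members, 36 matched the RefSeq promoter table of assembly GRCm38.p6. The 250 bases before each transcription start were searched on both strands for the NF-kB consensus, for the interferon-stimulated response element, read as GAAA, any 2 bases and GAAA again, and for the gamma-activated site TTCNNNGAA. Capitals in the lines mark every match, and overlapping matches of the NF-kB consensus on both strands run together.
Cxcl1, chr5:90890995-90891244, plus strand: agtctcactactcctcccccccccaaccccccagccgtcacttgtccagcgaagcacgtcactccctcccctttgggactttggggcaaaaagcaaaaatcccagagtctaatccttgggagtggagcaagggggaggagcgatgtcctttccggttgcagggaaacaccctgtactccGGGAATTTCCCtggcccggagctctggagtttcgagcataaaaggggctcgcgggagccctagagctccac
Cxcl2, chr5:90903649-90903898, plus strand: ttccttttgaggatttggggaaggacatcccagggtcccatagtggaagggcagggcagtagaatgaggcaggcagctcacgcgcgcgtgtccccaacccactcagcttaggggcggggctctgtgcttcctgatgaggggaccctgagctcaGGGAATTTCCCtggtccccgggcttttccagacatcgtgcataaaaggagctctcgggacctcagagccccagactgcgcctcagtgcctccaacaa
Cxcl3, chr5:90785851-90786100, plus strand: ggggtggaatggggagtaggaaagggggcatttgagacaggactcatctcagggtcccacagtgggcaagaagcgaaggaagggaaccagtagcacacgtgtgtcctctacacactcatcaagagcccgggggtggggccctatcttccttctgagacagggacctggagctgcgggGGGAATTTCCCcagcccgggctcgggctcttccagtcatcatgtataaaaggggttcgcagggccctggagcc
Cxcl10, chr5:92348890-92349139, minus strand: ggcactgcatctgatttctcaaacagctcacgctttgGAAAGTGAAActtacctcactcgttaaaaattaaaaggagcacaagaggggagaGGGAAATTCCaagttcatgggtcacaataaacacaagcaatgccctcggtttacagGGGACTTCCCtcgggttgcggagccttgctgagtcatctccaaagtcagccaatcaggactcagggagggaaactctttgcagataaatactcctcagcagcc
The NF-kB consensus was found in 8 of the 36 members' windows (Ccl9, Ccl20, Ccr3, Ccr6, Cxcl1, Cxcl2, Cxcl3 and Cxcl10) and in 3.9% of 32851 mouse promoter windows of the same length. Cxcl1, Cxcl2 and Cxcl3 each hold the letters GGGAATTTCC, with the first base at positions -71, -97 and -73 before the start. The window of Cxcl10 holds 2 NF-kB matches and 1 interferon-stimulated element, GAAAGTGAAA. That element was found in 3 members (Ccl19, Cxcl10 and Cxcl14) and 2.98% of all windows. TTCNNNGAA was found in 4 members (Ccl17, Ccr1l1, Ccr6 and Cxcl14) and 7.02% of all windows. A match is a description of letters, not of a bound site. Cxcl1 and Cxcl3 rose on high fat and Cxcl2 did not pass, and the difference between these genes was not tested.

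Of the other CXC ligands, Cxcl16 is a membrane-bound ligand of Cxcr6, the receptor of liver-resident T and natural killer T cells. Cxcl16 ranged from 8.005 through 8.32 to 9.19 on high fat, and from 7.57 through 8.01 to 10.4 on chow. It was higher on high fat in 37 of 39 strains, all but BXD61 and BXD85, by 0.331 ± 0.05 units (limma, adjusted p = 4.11e-07). Its receptor gene went the other way. Cxcr6 ranged from 6.24 through 6.665 to 7.11 on high fat, and from 6.62 through 6.98 to 7.39 on chow. The diets overlapped, but 36 of 39 strains were lower on high fat, and the mean difference was -0.346 ± 0.037 units (adjusted p = 1.93e-10). Only BXD49, BXD99 and BXD103 were higher. The mean of Cxcr6 lay below the negative-control median on high fat. T cell markers went both ways, since 2 of 13 rose and 4 fell, beside 27.7% and 26.1% of all genes. Cd4 was at 0.184 ± 0.038 and Cd3g at -0.186 ± 0.05. Of 10 natural killer cell markers 4 rose and 5 fell, with Gzmb at 0.277 ± 0.034 and Klrk1 at -0.188 ± 0.029. In these lists 3 T cell markers, Cd3g among them, lay below the control median on both diets. So did 6 natural killer cell markers, Klrk1 among them. The part of these lists in the Cxcr6 difference was not tested.

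Cxcl12, which holds stem cells and lymphocytes in place through Cxcr4, fell by 0.151 ± 0.045 units (adjusted p = 0.0041), and by 0.172 ± 0.041 without BXD61. Cxcr4 was higher on high fat, by 0.151 ± 0.036 (adjusted p = 0.00048). Cxcl15, known from mouse lung, was higher by 0.24 ± 0.032 at levels below the control median. Cxcl13, a B cell attractant, Cxcl14 and Cxcl17 did not pass, at differences between -0.042 and 0.072. Cxcl13 had the largest SD over strains of all members on both diets, 1.03 on high fat and 0.86 on chow. It ranged from 7.36 through 8.89 to 12.2 on high fat and from 8.00 through 9.02 to 11.3 on chow. Its difference per strain ran from -1.96 units in BXD98 to 3.17 in BXD68, and the 95% interval of its mean difference was wide, from -0.326 to 0.242.

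Among the CC ligands, Ccl2 recruits monocytes from blood through Ccr2. Ccl2 ranged from 7.72 through 8.12 to 9.54 on high fat, and from 7.57 through 7.83 to 10.9 on chow. Without BXD61 the highest values were 8.80 on high fat and 8.28 on chow, and the diets still overlapped. Ccl2 was higher on high fat in 37 of 39 strains, all but BXD61 and BXD81, by 0.284 ± 0.055 units (limma, adjusted p = 2.73e-05), and by 0.327 ± 0.039 without BXD61. Ccl3, which attracts macrophages and lymphocytes, ranged from 7.06 through 7.92 to 9.59 on high fat, and from 6.90 through 7.53 to 11.6 on chow. It was higher in 31 of 39 strains, by 0.348 ± 0.11 (adjusted p = 0.00534), and by 0.426 ± 0.08 without BXD61. Ccl6, a mouse ligand of Ccr1, rose by 0.14 ± 0.054 (adjusted p = 0.0249). Ccl19, which guides lymphocytes and dendritic cells through Ccr7, rose by 0.168 ± 0.039 (adjusted p = 0.00031).

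Among the CC ligands 5 fell. Ccl28 fell by 0.148 units, Ccl20 by 0.135, Ccl17 by 0.116, Ccl7 by 0.115 and Ccl8 by 0.099. Ccl8, a monocyte attractant, was below the control median, and its call was lost without BXD61 (adjusted p = 0.0611). Cx3cl1, the membrane-bound ligand of Cx3cr1, fell by 0.149 ± 0.038 (adjusted p = 0.000908). Of the CC ligands, 12 did not pass: Ccl1, Ccl4, Ccl5, Ccl9, Ccl11, Ccl12, Ccl21a, Ccl22, Ccl24, Ccl25, Ccl26 and Ccl27a. Their differences lay between -0.056 and 0.073. Ccl5, a T cell and monocyte attractant, had a difference of 0.039 with a 95% interval from -0.053 to 0.132.

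Several CC receptors rose by small amounts. Ccr2, the monocyte receptor of Ccl2, rose by 0.156 ± 0.041 (adjusted p = 0.00128) at levels below the control median. Ccr3, the eotaxin receptor of eosinophils, rose by 0.152 ± 0.054 and Ccr6, the receptor of Ccl20, by 0.154 ± 0.046. Ccr10, the receptor of Ccl27a and Ccl28, was called at 0.092 ± 0.038 (adjusted p = 0.0393), and not without BXD61 (0.0659).

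The largest difference of any member in either direction was in Ccr1l1, a mouse gene related to Ccr1 whose ligand is not established. Ccr1l1 ranged from 5.775 through 6.26 to 6.80 on high fat, and from 6.37 through 6.86 to 7.19 on chow. It was lower on high fat in 38 of 39 strains, all but BXD95, with a mean difference of -0.564 ± 0.038 units (limma, adjusted p = 2.54e-16). The mean on high fat was below the negative-control median. Ccr8 fell by 0.225 ± 0.046, Ccr1 by 0.154 ± 0.034, Ccr4 by 0.126 ± 0.035 and Cxcr7 by 0.106 ± 0.037, and the first 3 of these lay below the control median on both diets. Ccr7, Ccr9, Cxcr3, Cxcr5 and Xcr1 did not pass.

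Control probes also moved with diet. For the 5222 negative-control probe sets the absolute difference was 0.0965 units at the median, 0.296 at the 95th percentile and 0.641 at most. Over all genes the 95th percentile was 0.3 units, so about the same share of all genes as of controls lay past 0.296. Of the 52 members 9 lay past that control percentile, among them Ccl3, Ccr1l1, Cxcl1, Cxcl3, Cxcl9, Cxcl10, Cxcl16 and Cxcr6. Ccl2, at 0.284 units, was just inside it, and the smaller differences of other called members lie in the range that control probe sets also showed.

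Markers of Kupffer cells and macrophages were higher on high fat as well. Of 15 markers 10 rose (27.7% of all genes did) and 0 fell (26.1% of all genes did). Among the risers were Cd5l at 0.357 ± 0.051 units, Clec4f at 0.245 ± 0.048 and Cd68 at 0.281 ± 0.059. Their mean per array had a median of 9.504 (9.14 to 10.3 in the other strains) on high fat and 9.295 (8.95 to 9.94) on chow, and none of the 15 was below the control median on both diets. Their part in the rises of Ccl2 and Ccl3 was not tested. Of 9 eosinophil and mast cell markers 5 rose and 3 fell, with the immunoglobulin E receptor gene Fcer1a at -0.323 ± 0.038, Ear2 at 0.488 ± 0.075 and the mast cell protease gene Cpa3 at -0.242 ± 0.048. Fcer1a and Cpa3 lay below the control median on both diets, and the part of this list in the difference of Ccr3 was not tested either. The other lists moved less one way, and their counts are to be read beside the same shares of all genes. Of 10 B and plasma cell markers 2 rose and 4 fell, of 9 dendritic cell markers (Xcr1 among them) 1 rose and 1 fell, and of 12 sinusoidal endothelial markers 2 rose and 2 fell. Of 11 stellate cell markers 4 rose and 1 fell, of 8 cholangiocyte markers 3 rose and 3 fell, and of 12 hepatocyte markers 0 rose and 4 fell. Pancreatic acinar markers, a sign of other tissue in the sample, had 2 higher and 2 lower of 15, and red blood cell markers 2 higher and 2 lower of 6.

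Genes around the chemokine system were mixed. Of 13 measured relatives outside the name rule 7 rose and 2 fell, beside 27.7% and 26.1% of all genes. Darc, an atypical receptor that binds chemokines without signalling, rose by 0.235 ± 0.032 units, the platelet chemokine Pf4 by 0.249 ± 0.04 and Rarres2, the precursor of chemerin, by 0.136 ± 0.023. Of 25 genes that relay signals below the receptors 10 rose (27.7% of all genes did) and 1 fell (26.1% of all genes did). Without BXD61, 16 of the 25 rose (background 28.4%) and 1 fell (background 26.8%). Arrb1, an arrestin that ends receptor signalling, rose by 0.237 ± 0.041. Of 25 cytokines, their receptors and transcription factors that induce chemokines 7 rose and 5 fell, not far from the shares of all genes. The NF-kB subunit gene Relb rose by 0.315 ± 0.036, and the tumour necrosis factor gene Tnf fell by 0.54 ± 0.066, with 3 of 39 strains higher on high fat.

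**Figure D3:**
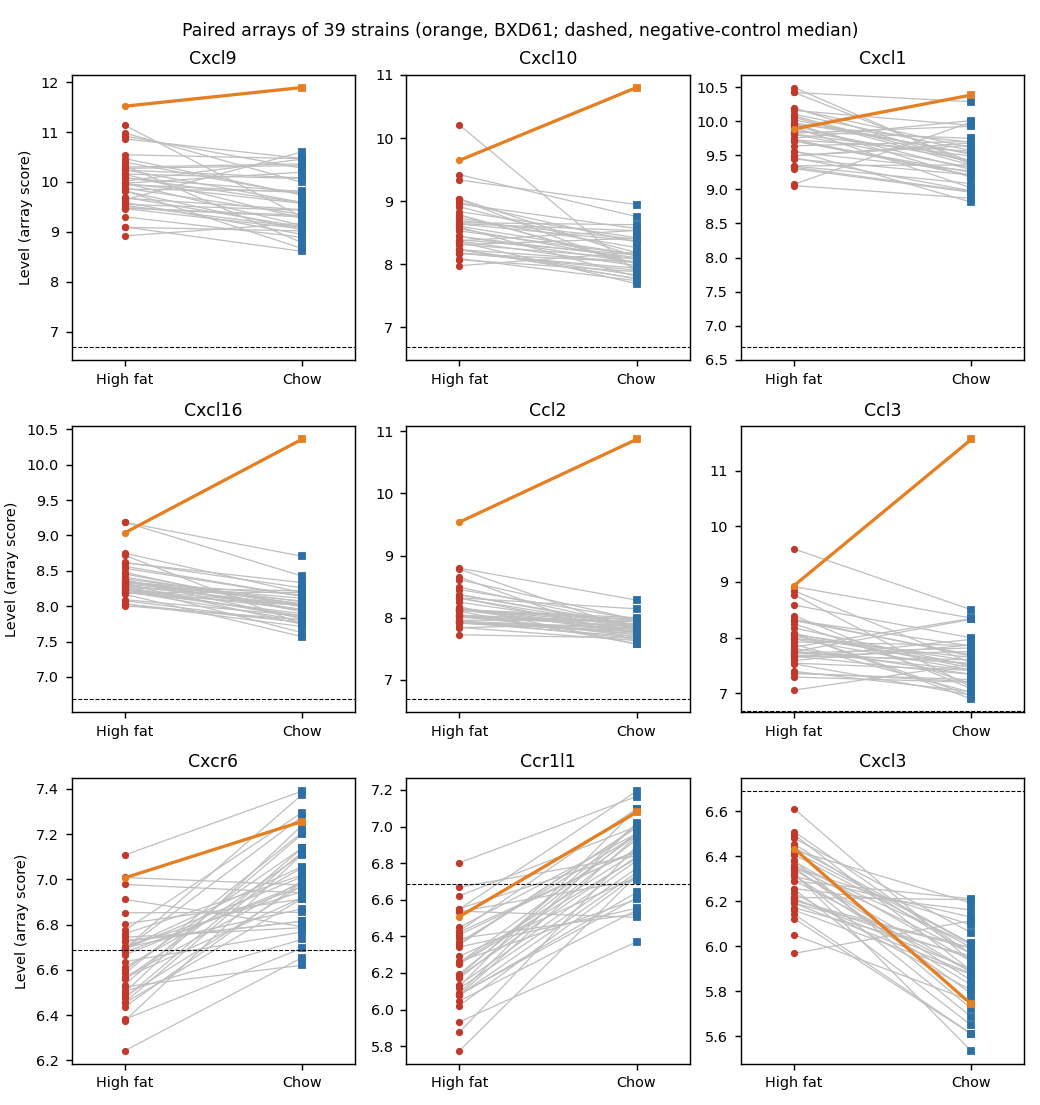
Level of 9 members (array score, vertical axis) on high fat (left) and chow (right), with 1 line per strain; BXD61 is orange and the dashed line is the negative-control median of 6.69. In Cxcl9, Cxcl10, Cxcl1, Cxcl16, Ccl2 and Ccl3 most lines are higher on high fat and the BXD61 line is higher on chow, while Cxcr6 and Ccr1l1 are lower on high fat in BXD61 as in most strains.

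Strains that went against the diet differences mostly did so in single members. Over the 7 members above the control median that rose by at least 0.25 units (Ccl2, Ccl3, Cxcl1, Cxcl9, Cxcl10 and Cxcl16 among them), BXD61 was lower on high fat in 7 of 7. BXD44 was lower in 3, and BXD68, BXD73, BXD81, BXD85 and BXD96 in 2 each. A further 13 strains were lower in 1 member, which makes 20 of 39 strains lower in at least 1, and 19 were lower in 0. The BXD61 differences reached -2.63 units for Ccl3, -1.33 for Ccl2 and -1.32 for Cxcl16. These values rest on 1 pool per diet.

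Between strains, 17 of 52 members differed (moderated F-test in limma, diet as covariate, adjusted p below 0.05), which is 32.7% against 22.3% of all genes. Without BXD61, 13 members were called, 25% against 23.3%. The share of variance between strains is given as an intraclass correlation of a strain's 2 arrays after removal of the diet mean. It had a median of 22.3% over the members and 19.6% over all genes, and of 16.7% and 20.2% without BXD61. The members that lost the call without it were Ccl2, Ccl20, Ccr2 and Cx3cl1.

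The largest share, 85%, was in Ccl9, a mouse ligand of Ccr1 made by macrophages (adjusted p = 1.63e-12). Ccl9 had a lowest level of 9.49 and a median of 11.09 on high fat, and ranged from 9.79 through 11.12 to 12.01 on chow. Strain means ran from 9.64 in BXD43 to 11.99 in BXD64, and BXD43 was lowest on both diets. Its diet difference of -0.027 ± 0.051 units was not significant (adjusted p = 0.679). Ccr3 had a share of 81.2% (adjusted p = 9.76e-11), with levels from 6.26 through 7.085 to 8.46 on high fat and from 6.06 through 6.945 to 8.21 on chow. The largest gap between neighbouring strain means was 0.181 units, with 4 strains at 8.05 or more and 35 at 7.87 or less. DBA/2J lay above this gap and C57BL/6J below it. Any sorted list has a largest gap, and the 2 arrays of a strain differed by up to 1.436 units (BXD71). The gap therefore does not show separate groups of strains. For Ccl9 and Ccr3 the share changed little without BXD61, to 85.2% and 81.7%.

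Other members that differed between strains included some that had moved with diet, such as Cxcl9, Cxcl10 and Cxcl16, and some that had not passed for diet, such as Ccl5, Cxcl13 and Cxcl14. Cxcl9 had a share of 64.3% with BXD61 and 54.6% without it (adjusted p = 0.000201 without), and its lowest strain mean was 8.85 in BXD81. Cxcl16 had 60.4% and 70.8%, Ccl5 58.5% and 47.7%, Cxcl14 53.3% and 54.5%, Cxcl10 50.5% and 36.8%, with and without BXD61, and all 4 kept the call. Ccl2 had 64.9%, and 31.2% without BXD61 (adjusted p = 0.0514). Ccr2 had 60% and 25% (adjusted p = 0.114 without). In Ccl20, a ligand of Ccr6 that attracts dendritic cells and lymphocytes to epithelia, a share of 82.5% turned to an estimate of -12.2% without BXD61 (adjusted p = 0.777), a negative value meaning that a strain's arrays were no more alike than those of different strains. Cxcl13 had 46.7%, and 40.4% without BXD61. Its strain means ran from 7.755 in BXD99 to 11.6 in BXD49. The largest gap between neighbouring strain means, 0.694 units, lay below 3 strains, BXD49, BXD61 and BXD68. Of these, BXD68 stood high on high fat only, at 12.19, since its chow level of 9.02 was the chow median.

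**Figure D4:**
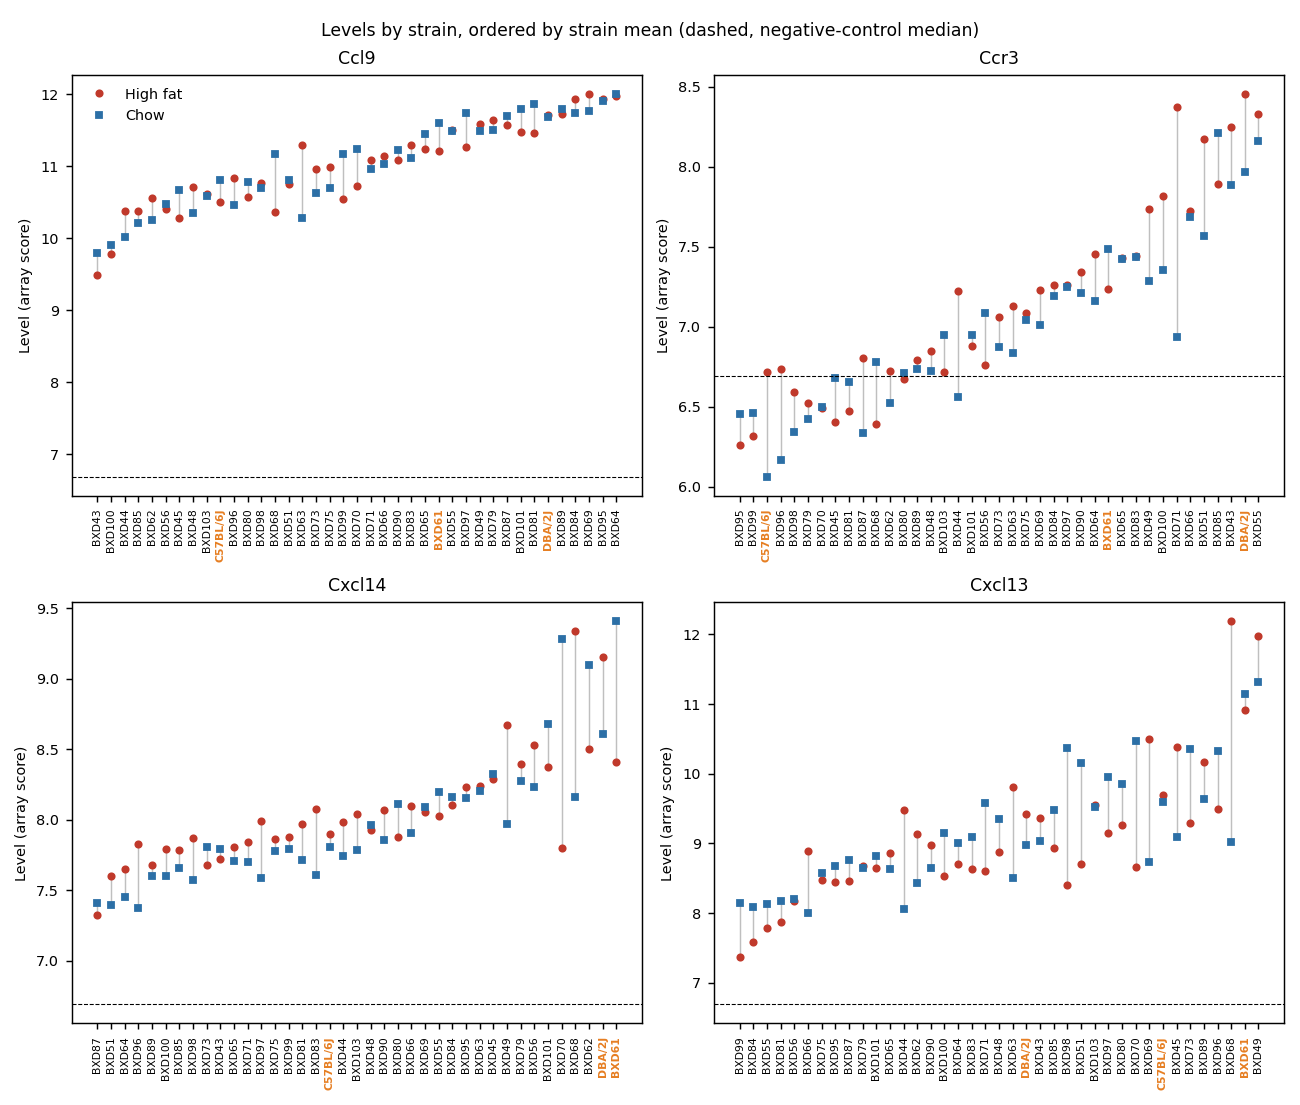
Levels of Ccl9, Ccr3, Cxcl14 and Cxcl13 (array score, vertical axis) on high fat (red circles) and chow (blue squares) for 39 strains ordered by strain mean, with a grey line between the arrays of a strain and the parents and BXD61 in orange. In Ccl9 the arrays of a strain lie close together and rise gradually over strains; in Ccr3 DBA/2J lies near the top and C57BL/6J near the bottom; in Cxcl13 the arrays of BXD68 lie 3.17 units apart.

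Between the parents 3 members differed, or 5.77% against 2.39% of all genes, and all 3 were lower in C57BL/6J. Lower calls made up 1.04% of all genes and higher calls 1.35%. The same 3 were called without BXD61, when the background was 2.91% in all, 1.18% lower and 1.74% higher. Ccr3 was at 6.715 and 6.06 in C57BL/6J on high fat and chow, against 8.46 and 7.97 in DBA/2J, a difference of -1.82 ± 0.24 units (limma contrast, adjusted p = 7.4e-07). The C57BL/6J chow value was the lowest chow level of all 39 strains and the DBA/2J high fat value the highest high fat level. Ccl9 was at 10.5 and 10.8 in C57BL/6J, against 11.7 and 11.7 in DBA/2J, a difference of -1.05 ± 0.23 (adjusted p = 0.00347). Cxcl14, a ligand of epithelia and monocytes with no settled receptor, was at 7.90 and 7.81 in C57BL/6J, against 9.16 and 8.61 in DBA/2J, a difference of -1.03 ± 0.29 (adjusted p = 0.0369). Each parent has 1 pool per diet, and the test uses the spread left within all strains after strain and diet are fitted. With the high fat array of either parent left out, only the call of Ccr3 was kept, and with either chow array left out, only those of Ccr3 and Ccl9.

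BXD61 had the highest high fat level of the 39 strains in 7 of 52 members, 13.5% against 3.58% of all genes. On chow it was highest in 21, 40.4% against 10.7%. It was highest on both diets in 6 members: Ccl2, Ccl5, Ccl20, Ccr2, Cx3cl1 and Cxcl9, or 11.5% against 0.928%. It lay at least 1 unit above the median of the other 38 strains in 6 members on high fat (11.5% against 0.248%) and in 14 on chow (26.9% against 3.5%). In 35 of 52 members BXD61 was lower on high fat than on chow, a larger share than the 9866 of all 21765 genes. The 3 members farthest from the other strains were Ccl20, Ccl3 and Ccl2. Ccl20 was at 9.08 on high fat and 10.04 on chow in BXD61, while the highest of the other strains were 7.14 on high fat and 7.34 on chow. BXD61 thus lay clear of every other strain for this gene on both diets. Ccl3 was at 8.94 on high fat and 11.6 on chow in BXD61, against highest values of 9.59 on high fat, in BXD98, and 8.501 on chow in the others. Ccl2 was at 9.54 on high fat and 10.9 on chow in BXD61, against 8.80 and 8.28 as the highest of the others. Not all members stood high. Ccl25, Ccl27a, Ccr6 and Cxcl12 had their lowest chow level in BXD61, and Cxcl3 and Ccr7 were -0.197 and 0.004 units from the median of the others on chow.

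The upstream window of Ccl20 is shown because this gene set BXD61 most clearly apart. Capitals mark its single match to the NF-kB consensus, which lies on the minus strand of the gene.
Ccl20, chr1:83116516-83116765, plus strand: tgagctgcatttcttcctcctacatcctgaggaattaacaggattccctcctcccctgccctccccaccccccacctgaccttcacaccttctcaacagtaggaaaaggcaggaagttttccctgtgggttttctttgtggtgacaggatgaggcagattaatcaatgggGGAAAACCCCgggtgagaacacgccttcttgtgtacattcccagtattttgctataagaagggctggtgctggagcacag

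Other gene lists stood apart in BXD61 on chow too. The mean of the macrophage markers was 9.82 on high fat and 10.7 on chow in BXD61, and its chow value was above the 8.95 to 9.94 of the other strains. Of the 15 markers 11 had their highest chow level in BXD61 (10.7% of all genes did) and 3 had their lowest there. On high fat 1 of the 15 was highest in BXD61 (3.58% of all genes were). Cd68 was at 9.265 on high fat and 10.6 on chow, against a highest of 9.92 and 9.51 in the others. Cd5l was at 10.83 and 11.68, against a highest of 11.5 and 11.23 in the others. Clec4f, a marker of resident Kupffer cells, was at 10.4 and 8.77, against medians of 10.8 and 10.6 in the others. The means of T cell, B and plasma cell, dendritic cell, stellate cell and cholangiocyte markers were also the highest of the 39 strains on chow in BXD61. For dendritic cell markers the margin was small, 7.703 against 7.678 in the next strain. Means of the other marker lists were not highest on chow. BXD61 ranked 2 for monocyte and neutrophil and 6 for eosinophil and mast cell markers on chow. It ranked 11 for natural killer cell and 15 for sinusoidal endothelial markers. Its hepatocyte markers averaged 14.35 on high fat, within the 14.2 to 14.45 of the other strains, and 14.1 on chow, below their 14.25 to 14.5. Of the 25 relay genes 20 had their highest chow level in BXD61, and of the 25 inducers 14 (10.7% of all genes did). On high fat these counts were 5 and 7 (3.58% of all genes). The chow means of the relay genes and of the inducers were also the highest of the 39 strains in BXD61. The interferon response genes had a mean of 9.23 on high fat and 9.60 on chow in BXD61. This mean ranked 1 on chow, against 9.53 at most in the other strains, and 24 on high fat. Of the 27 genes 7 were highest in BXD61 on chow and 0 on high fat. The part of any of these in the member values of BXD61 was not tested, and a strain with 1 pool per diet cannot tell a strain from a pool.

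**Figure D5:**
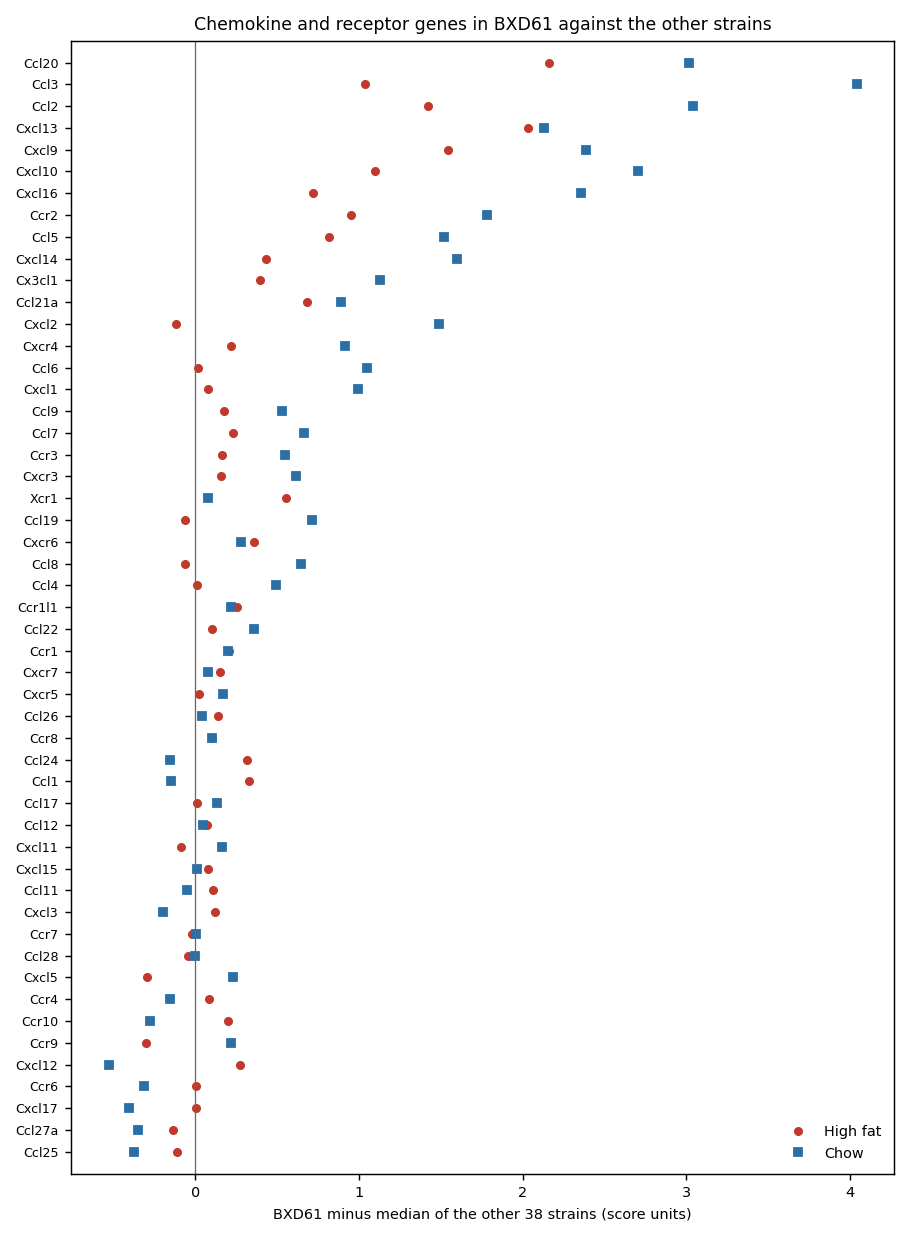
Level of the members reported here in BXD61 minus the median of the other 38 strains (score units, horizontal axis) on high fat (red circles) and chow (blue squares). Ccl3, Ccl2 and Ccl20 lie more than 3 units to the right on chow, most other high members lie further right on chow than on high fat, and members at the foot of the plot lie near or left of 0.

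Ligands and their receptors were compared across strains in 20 pairs, on the mean of a strain's 2 arrays after removal of the diet means. Both members of a pair come from the same arrays, and some BXD strains are closely related. Pearson's r and Spearman's rho both passed in 3 pairs (two-sided permutation tests with 100000 resamples, Benjamini-Hochberg over 20 pairs), among them Ccl2 with Ccr2 and Ccl19 with Ccr7. Ccl2 and Ccr2 had r = 0.91 (permutation p = 1e-05, the smallest the resamples can give, adjusted p = 0.0002) and rho = 0.6 (permutation p = 0.00011, adjusted p = 0.0022). Without BXD61 r was 0.64 and rho 0.57, and without the 2 strains farthest from the median of Ccl2, BXD61 and BXD97, r was 0.57. On high fat alone r was 0.77 and rho 0.64, while on chow alone r was 0.88 and rho 0.14 (permutation p = 0.384). The levels of Ccr2 lay below the control median on average.

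Ccl19 and Ccr7 had r = 0.54 (permutation p = 0.00043, adjusted p = 0.00287) and rho = 0.53 (permutation p = 0.00062, adjusted p = 0.0062). Without BXD61 r was 0.6 and rho 0.57, and without the 2 strains farthest from the median of Ccl19, BXD61 and BXD96, r was 0.57. When each array was centred on its median this pair no longer passed. Pairs that did not pass with all strains included those that share Cxcr3 (Cxcl9 with r = 0.23, Cxcl10 with r = 0.34 and Cxcl11 with r = -0.09) and Cxcl16 with Cxcr6 (r = 0.31 and rho = 0.14). Cxcl12 and Cxcr4 had r = -0.04. None of the raw and adjusted values of these pairs is corrected for kinship between strains.

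Several probe sets read some members. The 5 probe sets of Ccl19 were higher on high fat by 0.168 to 0.332 units. The 4 of Ccl21a held identical values. Those of Ccl27a differed by -0.034 and -0.104 and those of Ccl25 by -0.003 and -0.063. Ccl19, Ccl21a and Ccl27a lie in a mouse gene cluster with near-identical copies (Ccl21b and Ccl27b among them), so their probes may read more than 1 copy and their values are uncertain.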

How the data were processed

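Livers of high fat and chow fed male mice were profiled on Affymetrix whole-transcript arrays. Per the submitters' processing notes, Affymetrix Expression Console was used. How probe sets were summarised and why each array has mean 8 and SD 2 is not given in the sources used here. These scores, as the authors deposited them, were used as they stand. The planned tests had assumed log2 values, and limma was applied to scores instead. Of 35556 probe sets, 25096 carried 1 symbol and 10458 none; the brightest per symbol left 21765 genes. Array medians lay between 7.66 and 7.81, and 0 value columns lacked a sample. Array scores have no counting depth, so the number of arrays limits the precision.

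The diet test used limma 3.58.1 in R 4.3.3 on 78 paired arrays with strain as a block. Strain and parents were tested in the same kind of fit with diet as a term. Benjamini-Hochberg adjustment ran over all 21765 genes. Strain names pair the arrays, and deviations of a strain's arrays from the diet means had a median correlation of 0.338, and 37 of 39 exceeded 0.1. Pairs of ligand and receptor used permutation tests in scipy 1.17.1 under Python 3.11.15. The limma tests were tested on simulated data. Alternatives covered strains left out, probe set choice, scaling, low genes, array weights and the block.

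Full values went to members called for diet by at least 0.25 units and above the control median on a diet, to the 10 members of smallest strain p, to members called between the parents and to the 3 farthest in BXD61. Other members are named with fewer values, and 1 member and 1 marker gene enter the counts but are not reported here. At most 3 genes per list were named, by smallest diet p. The members and lists were chosen with earlier results of these data known. Promoter sequences are from RefSeq (GRCm38.p6). Arrays of strains with 1 diet (BXD50 on high fat, BXD60 and BXD92a on chow) were used only in the alternative on all 81 arrays and in the closing section.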

Additional observations from a re-analysis of the deposited data

How the results depend on the processing

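The number of members called for diet stayed within 1.5 times the reported 31 under every alternative run, at 21 without genes below the negative-control median and 26 to 33 under the others. That filter left 7 lower calls in place of 14, because low genes were no longer tested. With no replicate block 27 of the 31 members were called on the same 78 arrays (Ccl6, Ccl20, Ccr3 and Ccr10 were lost) and 26 on all 81 arrays (Ccr2 as well). Centring each array on its median gave 32 calls (19 higher, 13 lower) and quantile normalization 30 (18 higher, 12 lower). The direction of every called member held under every alternative in which it was tested. Leaving out 1 strain at a time gave 29 to 33 calls (16 to 19 higher, 13 to 15 lower), 10 in each case past 0.25 units, and 13 to 18 strain calls, against 17 reported. The strain share of Ccl20 was 82.5% with all strains, -12.2% without BXD61 and -9.9% without BXD44, BXD61 and BXD63, and it lay between -12.2% and 84.5% with any 1 strain left out. Between the parents 1 of 3 calls was left without the C57BL/6J high fat array and 1 without the DBA/2J high fat array. In these the lone array is assumed to vary like the other strains. With quantile normalization Cxcl14 was lost. For ligand and receptor pairs rho called 1 pair in place of 3 on chow alone, 2 on high fat alone and 2 without BXD61. The causes were not tested. Pools of 1 strain and diet, 1 array each, set the limit on every statement about a single strain, and 16 members had a mean below the control median on at least 1 diet.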

Other observations

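The 3 strains with 1 diet entered no paired comparison. On high fat the BXD50 array lay above all 39 paired strains for Cxcl12 (11.54, against a highest of 11.52) and below all of them for Ccl22 (6.465, against a lowest of 6.47). On chow the BXD60 array lay above all paired strains for Ccl27a (10.68, against 10.62) and Cxcl11 (9.129, against 9.128), and the BXD92a array lay below all for Ccr6 (6.54, against 6.65). None of these arrays stood outside the paired strains in more than 2 members.

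BXD79 had the lowest level of the 39 strains in 3 members on high fat and in 10 on chow. On high fat BXD87 and BXD89 were lowest in 5 members each and BXD84 was highest in 5. Such counts were not made over all genes for these strains, so they cannot be read as particular to the members. These are descriptions of single pools, with no test.

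Relatives outside the name rule were mixed in BXD61. Of the 13 measured, 6 had their highest chow level there (10.7% of all genes did) and 2 their lowest. On high fat 1 was highest there (3.58% of all genes were). Their mean in BXD61 ranked 1 on chow and 8 on high fat. Cx3cr1, the receptor of Cx3cl1 on monocytes and resident macrophages, was at 9.11 on high fat and 10.74 on chow in BXD61, while the highest of the other strains were 8.56 and 8.82. Over all strains its diet difference was -0.13 ± 0.05 units (limma, adjusted p = 0.0274). It is named here because of its place beside Cx3cl1, after its values were seen.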
